A study of Mus musculus with 55 samples.

Results

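Pre-mRNA levels of mouse embryonic stem (ES) cells 40 min after release from mitosis were compared with those of cells still held in mitosis. The comparison rests on 5 of the 55 RNA-seq libraries of the series. Of these, 2 were taken at 40 min (replicates 1 and 2) and 3 from mitotic cells (replicates 1, 2 and 3). The 5 libraries were chosen by their labels alone, and all 9911 genes of the table of these cells were tested. Fold changes come from a fit on all 19 libraries of the CCNA-GFP cells, with the replicate as a block. Changes within a single replicate are named as such. CCNA-GFP cells are E14Tg2a ES cells of strain 129/Ola that carry a CCNA-GFP cell cycle reporter, grown with serum and LIF. All 5 libraries come from cells treated with RO-3306, a CDK1 inhibitor, at 10 µM for 4 h and then with nocodazole, which depolymerises microtubules, at 50 ng/ml for 4 h, before mitotic cells were shaken off. The mitotic group was collected at that point, and the 40 min group after nocodazole had been washed out and the cells had been put back in culture. Each time point was a separate dish of the same shake-off, so that the groups hold cells of a single reporter line and share the drug treatment. They differ by the release, which includes resuspension in pre-warmed medium, replating and time in culture. Exit from mitosis and this handling cannot be told apart here. For other stages of the same cells the libraries at 20 min (n = 2), 60 min (n = 2) and of asynchronous, untreated cells (n = 3) were used. Those at 30, 90 and 120 min (n = 2 each) and at 50 min (n = 1) gave medians over the time course. The same step in CTCF-AID cells, ES cells whose CTCF protein carries a degron, was taken from the libraries without auxin (-IAA). In these the protein had not been depleted (2 at 40 min, 3 in mitosis). CTCF-AID cells too derive from E14Tg2a of strain 129/Ola, were grown with serum and LIF and went through the same drugs.

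During mitosis chromosomes condense, most transcription stops and many factors leave the DNA. Transcription starts again as cells leave mitosis and nuclei re-form, and in ES cells the G1 phase that follows is short. Because mRNA made before division is still present, new transcription is read from pre-mRNA, the intron-containing transcript that is short-lived. Here a value is the level of the pre-mRNA isoform of a gene in TPM, a length-normalised share of all transcripts of the library, which is an average over the whole gene from its start to its end.

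ES cell markers were present in all 5 libraries. Of 10 pluripotency markers 9 were measured, and their summed level was between 39.0 and 53.8 TPM in the mitotic libraries and between 61.2 and 77.2 TPM at 40 min. Sox2 was not analysed here. Of 17 markers of extraembryonic endoderm, mesoderm, neural, trophoblast and fibroblast cells only T, Eomes and Pax6 were measured, with summed levels of 0.225 to 1.03 TPM in mitosis and 0.936 to 1.81 TPM at 40 min, and the others were not analysed here. Wider lists of such genes hold 14 measured members. The 4 of extraembryonic endoderm summed to 5.78 to 7.48 TPM in mitosis and 6.25 to 6.33 TPM at 40 min, the 5 of germ layers to 1.52 to 3.26 and 3.20 to 5.18 TPM, and the 5 of trophoblast and fibroblast to 2.37 to 3.95 and 5.52 to 8.01 TPM. The part of these markers and of the totals below in the results was not tested. The pre-mRNA of the listed genes summed to between 13746.9 and 17245 TPM in the mitotic libraries. At 40 min it summed to 23464.3 and 19838.4 TPM in replicates 1 and 2. The groups did not overlap in this sum, which leaves out genes not listed. Values of each library also carry a factor of its own, described under processing. More pre-mRNA per cell and less of other RNA cannot be told apart in such sums of TPM. Mitotic replicate 2 stood somewhat apart, with a Spearman correlation across genes of 0.933 with replicate 1 and 0.936 with replicate 3, against 0.979 between replicates 1 and 3.

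At 40 min 4888 of the 9911 genes were higher than in mitosis and 4 were lower (limma with the replicate as a block, Benjamini-Hochberg adjusted p under 0.05), which is 49.3% and 0.0404% of all genes tested. The median log2 fold change, on the log2(TPM + 1) scale used throughout, was 0.26, with quartiles of 0.10 and 0.49. It was 0.28 in replicate 1 and 0.20 in replicate 2. A total of 8292 genes (83.7%) were higher in both replicates, 654 (6.6%) were lower in both and 965 were neither. Without the 40 min library of replicate 1 limma called 2872 genes higher and 2 lower, and without the replicate block 2362 higher and 1 lower. Of the 4888 called genes, 4179 had both 40 min libraries above all 3 mitotic ones, an order seen in 50.3% of all genes. A log2 fold change of at least 1 was reached by 437 called genes, or 4.41%, and all 437 were higher in both replicates.

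The table lists genes by their level in asynchronous or released cells and not in mitosis, so that a gene can be listed for being high after release and one high in mitosis alone can be missing. Among the 8693 genes with a mean over 0.5 TPM in asynchronous cells, a level that uses neither group and a subset chosen after the data were seen, 4175 (48.0%) were higher and 4 lower. The counts are also relative to all RNA. With every library brought to the same total of listed pre-mRNA, 2347 genes (23.7%) were higher and 3100 (31.3%) lower, and the median of all genes went from 0.26 to −0.05. Of the 437 genes with a log2 fold change of at least 1, 435 were still called higher on that scale. Changes are therefore given below beside the median of all genes, and lists of genes with both splits.

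**Figure D1:**
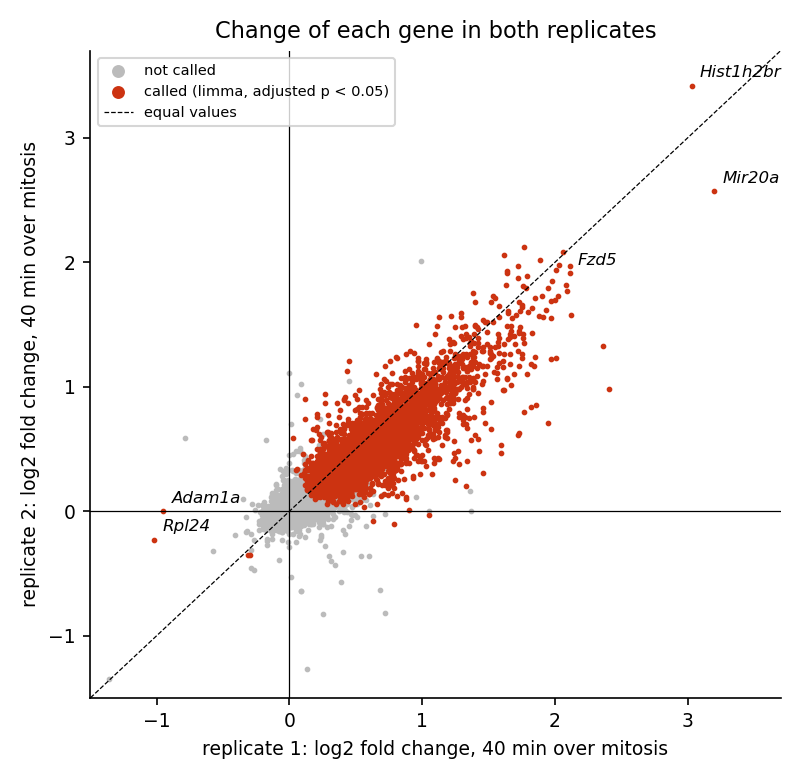
Log2 fold change from mitosis to 40 min of each of the 9911 genes in replicate 1 (horizontal axis) and in replicate 2 (vertical axis), on the log2(TPM + 1) scale. Each point is a gene, red where limma called it, and the dashed line marks equal values. Most called genes lie above 0 in both replicates, with Hist1h2br and Mir20a farthest out, and the lower genes Rpl24 and Adam1a have larger falls in replicate 1 than in replicate 2. On libraries of equal total 3100 genes were called lower.

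The 15 genes named by the size of their change had log2 fold changes from 1.87 to 3.11. In each of them both 40 min libraries were above all 3 mitotic ones, an order that the choice by size makes likely. Their spans on the genome ran from 107 to 21247 bp, with a median of 5812 bp. Regulators of growth and stress responses are described first, which is not their order by size of change. Gadd45b, a stress sensor of the growth arrest and DNA damage family, lies at chr10:80930073-80932204. It was at 0.557, 0.897 and 1.1 TPM in the mitotic libraries and at 5.49 and 7.01 TPM at 40 min, a log2 fold change of 1.99 ± 0.18 (SE, limma adjusted p = 1.3e-07). Tob1 (chr11:94211454-94215495) and Btg1 (chr10:96617006-96622809) belong to one family of antiproliferative proteins that bind the CCR4-NOT deadenylase. Tob1 was at 2.68, 1.63 and 2.14 TPM in mitosis and at 14.6 and 8.26 TPM at 40 min. Btg1 was at 2.13, 1.56 and 1.57 TPM in mitosis and at 11.3 and 8.24 TPM at 40 min. Both had a log2 fold change of 1.95, with SEs of 0.15 and 0.16. Sertad1 (chr7:27486910-27490316), a cofactor that binds CDK4, went from 0.557, 0.797 and 0.787 TPM to 5.65 and 5.11 TPM, a log2 fold change of 1.93 ± 0.13 (SE, limma adjusted p = 1.4e-08). In all 4 both 40 min libraries were above the 3 mitotic ones.

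Further genes of the 15 encode enzymes, receptors and membrane proteins. Idi1 (chr13:8885501-8892451), the isopentenyl diphosphate isomerase of the mevalonate pathway, was at 0.976, 0.631 and 0.928 TPM in mitosis and at 6.94 and 5.25 TPM at 40 min. Insig1 (chr5:28071363-28078662), which holds the sterol sensor SCAP in the endoplasmic reticulum, was at 1.95, 1.26 and 2.02 TPM and then at 9.94 and 8.17 TPM. Their log2 fold changes were 1.97 ± 0.19 and 1.93 ± 0.19 (SE). Fzd5 (chr1:64730558-64737751), a Wnt receptor, went from 2.06, 1.59 and 1.32 TPM to 12.2 and 8.75 TPM (log2 fold change 2.24 ± 0.28, SE). Cd68 (chr11:69664213-69666153), a lysosomal membrane glycoprotein best known from macrophages, went from 1.88, 1.56 and 2.08 TPM to 10.7 and 9.07 TPM (log2 fold change 2.11 ± 0.16, SE). Atp1b1 (chr1:164437109-164458355), a subunit of the sodium-potassium pump, went from 1.43, 1.56 and 2.14 TPM to 9.55 and 6.66 TPM. With a span of 21247 bp it was the longest of the 15 genes, and its log2 fold change was 1.87 ± 0.18 (SE).

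The remaining genes of the 15, apart from the microRNA gene Mir20a described below, encode proteins of varied function. Syf2 (chr4:134930898-134937548), a spliceosome component, went from 1.88, 0.963 and 1.88 TPM to 8.52 and 6.71 TPM. Zc3h10 (chr10:128541963-128547774), a zinc finger RNA-binding protein, went from 1.46, 0.731 and 0.872 TPM to 7.42 and 6.5 TPM. Klhl11 (chr11:100462614-100472741), an adaptor of cullin ubiquitin ligases, went from 1.22, 0.996 and 1.27 TPM to 8.59 and 6.83 TPM. Fam72a (chr1:131527903-131539872) went from 0.871, 0.565 and 1.1 TPM to 6.23 and 4.4 TPM. The log2 fold changes of these 4 genes were 1.87, 1.98, 2.10 and 1.87. Hist1h2br (chr13:21833743-21837530), which encodes a histone H2B, had the largest value, 3.11 ± 0.22 (SE, limma adjusted p = 1.5e-08), from 1.53, 0.698 and 3.23 TPM to 19.7 and 17.2 TPM. Histone genes share sequence, and reads can be split between members of the family, so that its level is uncertain. The study showed mRNA and not pre-mRNA for histone genes, and the share of new transcription in this value was not tested.

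**Figure D2:**
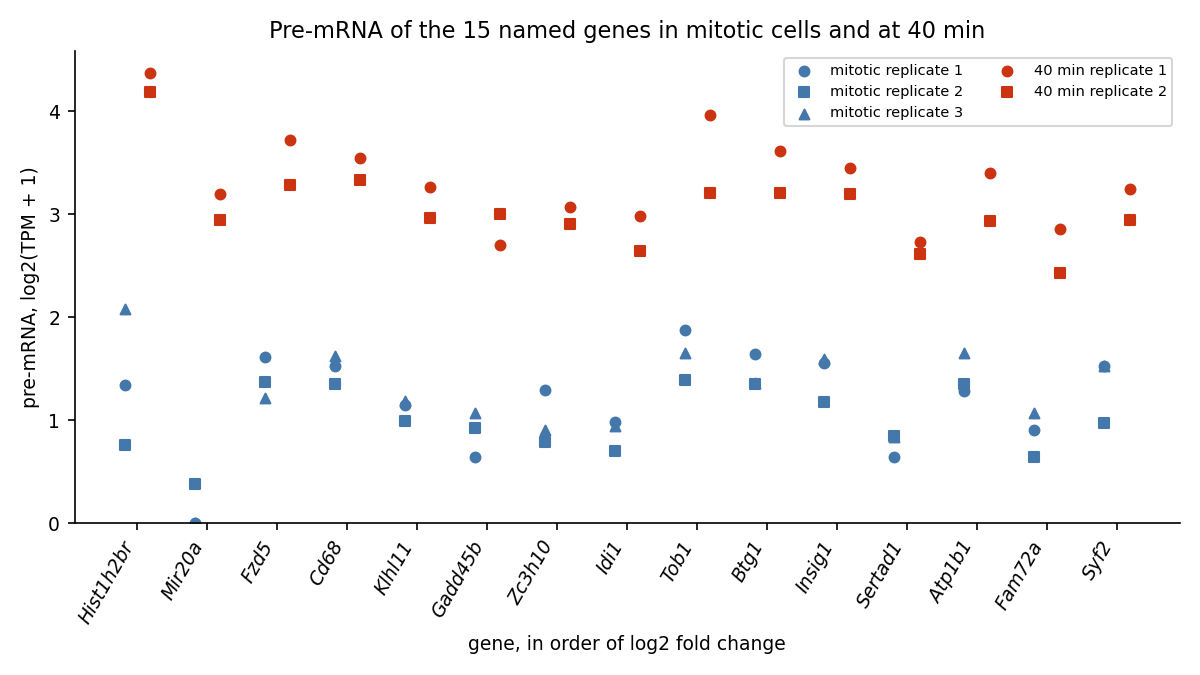
Pre-mRNA level, log2(TPM + 1), of the 15 genes named by the size of their change, in order of log2 fold change. Blue points are the 3 mitotic libraries and red points the 2 libraries at 40 min, with one symbol per replicate, and in each gene both red points lie above all blue ones.

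Mir20a (chr14:115044157-115044263), a microRNA gene of 107 bp inside its host gene Mir17hg on the same strand, was listed at 0, 0.299 and 0 TPM in mitosis and at 8.17 and 6.73 TPM at 40 min. Reads from the host may fall on it too, and such reads could not be told apart from its own here. Mir17hg itself was at 5.75, 7.77 and 6.13 TPM in mitosis and at 13.2 and 12.4 TPM at 40 min, a log2 fold change of 0.80 ± 0.14 (SE, limma adjusted p = 9.4e-05, but 0.26 and 0.0892 with all libraries at the same total). The mature products of Mir20a are shown because the gene came next to Hist1h2br in the size of its change, with the seed (bases 2 to 8) in capitals, as RefSeq gives them on the plus strand of GRCm38.p6, at chr14:115044183-115044205 for the 5p and chr14:115044219-115044240 for the 3p product.
mmu-miR-20a-5p: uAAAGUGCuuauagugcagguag
mmu-miR-20a-3p: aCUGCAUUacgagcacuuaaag
The RNA-seq libraries measured precursor RNA, and the mature microRNA was not measured.

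Promoters of 5 short genes with large changes are printed so that the start of each transcript can be read beside its value. They are Gadd45b (chr10:80929841-80930140, plus strand), Tob1 (chr11:94211204-94211503, plus strand), Btg1 (chr10:96616751-96617050, plus strand), Cd68 (chr11:69666121-69666420, minus strand) and the pluripotency factor Klf4 (chr4:55532426-55532725, minus strand), which is described below. Each runs 5′ to 3′ from 250 bases before to 50 after the start that RefSeq annotates on GRCm38.p6, and is in lower case except for 4 of the 6 motifs searched, which are in capitals. All were read on both strands. The motifs in capitals are the E-box bound by Myc and related factors (CACGTG), the CCAAT box, a core of the cAMP response element (TGACG) and the TATA box (TATAAA). The GC box (GGGCGG) and an ETS motif (CCGGAAGT) were searched too and are not marked.
Gadd45b: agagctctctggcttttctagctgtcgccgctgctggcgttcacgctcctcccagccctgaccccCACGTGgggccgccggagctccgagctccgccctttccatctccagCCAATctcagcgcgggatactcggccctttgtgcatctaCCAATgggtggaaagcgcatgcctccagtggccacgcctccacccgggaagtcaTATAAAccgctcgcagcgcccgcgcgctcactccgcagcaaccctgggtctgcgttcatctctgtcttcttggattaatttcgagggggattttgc
Tob1: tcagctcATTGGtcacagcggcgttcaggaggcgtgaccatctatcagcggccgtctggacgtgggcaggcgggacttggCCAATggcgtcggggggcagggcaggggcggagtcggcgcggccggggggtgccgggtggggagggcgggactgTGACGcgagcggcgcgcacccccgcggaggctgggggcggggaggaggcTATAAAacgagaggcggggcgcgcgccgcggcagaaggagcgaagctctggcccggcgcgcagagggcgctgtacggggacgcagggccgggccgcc
Btg1: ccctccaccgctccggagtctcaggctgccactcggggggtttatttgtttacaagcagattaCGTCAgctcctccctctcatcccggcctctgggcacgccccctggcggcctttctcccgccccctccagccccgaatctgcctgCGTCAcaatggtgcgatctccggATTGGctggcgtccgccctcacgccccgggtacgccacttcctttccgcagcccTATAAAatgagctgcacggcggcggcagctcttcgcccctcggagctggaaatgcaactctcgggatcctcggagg
Cd68: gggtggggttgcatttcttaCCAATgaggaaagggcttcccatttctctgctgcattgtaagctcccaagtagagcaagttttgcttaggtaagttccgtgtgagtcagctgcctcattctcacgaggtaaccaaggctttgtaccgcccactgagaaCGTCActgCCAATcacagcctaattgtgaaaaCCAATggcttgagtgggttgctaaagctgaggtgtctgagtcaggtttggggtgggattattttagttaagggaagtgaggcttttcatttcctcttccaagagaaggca
Klf4: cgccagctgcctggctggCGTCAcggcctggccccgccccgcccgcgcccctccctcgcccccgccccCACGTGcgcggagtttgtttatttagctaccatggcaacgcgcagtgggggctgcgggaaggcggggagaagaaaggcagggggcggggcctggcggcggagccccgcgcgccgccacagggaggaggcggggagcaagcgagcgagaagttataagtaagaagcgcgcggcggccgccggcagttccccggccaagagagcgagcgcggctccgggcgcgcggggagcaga
TATAAA starts 46 bases before the annotated start in Gadd45b, 47 in Tob1 and 26 in Btg1, and is absent from the windows of Cd68 and Klf4. CCAAT occurs in either orientation in the windows of Gadd45b, Tob1, Btg1 and Cd68, and CACGTG in those of Gadd45b and Klf4. Over the 7937 genes with a RefSeq promoter on the strand of their gene, 11.1% of windows held CACGTG, 40.1% CCAAT, 34.1% TGACG and 6.21% TATAAA. The GC box was in 68.0% and the ETS motif in 9.64% of them. Among the 345 of them with a log2 fold change of at least 1 the shares were 17.1%, 48.7%, 38.6% and 9.86% in the same order, and 77.1% for the GC box and 7.54% for the ETS motif, so that 5 motifs were more frequent and the ETS motif less frequent than over all genes. In genes under 8000 bp alone the shares of CACGTG were 17.3% of 220 genes with such a change and 11.2% of all 1553. Those of the ETS motif were 7.73% and 10.9% there, and those of TATAAA 10.5% and 8.5%. For CCAAT they were 50.0% and 40.8%, for TGACG 42.7% and 34.3%, and for the GC box 75.9% and 61.6%. These shares are a description without a test, and a match of letters is not a bound site.

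The genes lower at 40 min were 4. Rpl24 (chr16:55966275-55971435), a protein of the large ribosomal subunit, was at 1.81, 1.13 and 1.91 TPM in mitosis and at 0.387 and 0.81 TPM at 40 min, a log2 fold change of −0.68 ± 0.19 (SE, limma adjusted p = 0.00515). Rian (chr12:109603940-109661716), an imprinted long noncoding RNA, was at 4.39, 6.08 and 5.62 TPM and then at 3.39 and 4.56 TPM, a log2 fold change of −0.30 ± 0.12 (SE, limma adjusted p = 0.0477). Zfp653 (chr9:22055411-22071376), a zinc finger gene, was at 1.08, 0.631 and 1.29 TPM and then at 0.678 and 0.278 TPM (log2 fold change −0.32, limma adjusted p = 0.0123). Adam1a (chr5:121518576-121545482) was at 1.81, 1.69 and 1.41 TPM and then at 0.452 and 1.69 TPM, so that its fall (−0.52, limma adjusted p = 0.041) was seen in replicate 1 and not in replicate 2. None of these 4 calls held for every library left out: without the 40 min library of replicate 1 the adjusted p by limma was 0.206 for Rpl24, 0.279 for Rian and 0.677 for Adam1a, and without that of replicate 2 it was 0.165 for Zfp653. All 4 overlap another annotated gene on the same strand, with which reads can be shared. In CTCF-AID -IAA cells Rpl24 (−0.46, limma adjusted p = 0.00088) and Rian (−0.69, limma adjusted p = 0.00112) were lower too, whereas the values of Zfp653 (0.03, limma adjusted p = 0.783) and Adam1a (0.33, limma adjusted p = 0.449) were not called.

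Of span and exon number, span went more with the change, with Spearman's rho of −0.54 and −0.32 across genes, which are not independent replicates. From the shortest to the longest 10% of the 9885 genes with a unique position, the median log2 fold change went from 0.55 (spans of 56 to 4696 bp) to 0.05 (103801 to 1503514 bp). It was lower at every step between, with 0.41 for spans of 8072 to 12127 bp, 0.26 for 22655 to 30088 bp and 0.12 for 61785 to 103762 bp. Called higher were 75.7% of the shortest 10% and 6.07% of the longest, and a log2 fold change of at least 1 was seen in 15.7% and in 0% of them. With all libraries at the same total 477 of the 989 shortest genes were higher and 52 lower, against 16 higher and 721 lower of the 989 longest. The same fall was seen in each replicate, from 0.60 to 0.05 in replicate 1 and from 0.49 to 0.01 in replicate 2. Spearman's rho between span and log2 fold change was −0.51 in replicate 1 and −0.55 in replicate 2 (9885 genes). Between the shortest and longest 20% of genes the medians differed by 0.44, by 0.47 in replicate 1 and by 0.43 in replicate 2, and with all libraries at the same total by 0.48. The genes with a change of at least 1 had a median span of 6207 bp, against 22650 bp over all genes and 40630 bp over those not called.

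The order by mitotic level depended on the scale and the line. Mitotic values enter both this order and the fold change, and changes of low genes are understated on the log2(TPM + 1) scale. Both can shape the order. In 5 classes of 20% of the genes each, from the lowest to the highest mitotic level, the median log2 fold change was 0.21, 0.20, 0.27, 0.31 and 0.32. With all libraries at the same total it ran the other way, from 0.08 to −0.17, and in CTCF-AID cells it was 0.43 in the lowest and 0.31 in the highest class. Within each of these classes of level, without that scaling, the median was lower in longer genes, from 0.42 in the shortest to 0.07 in the longest 20% in the lowest class and from 0.57 to 0.14 in the highest. Genes with 1 or 2 exons had a median of 0.43 and those with over 20 exons one of 0.11, but exon number and span go together. A gene with 1 exon has no intron that sets its pre-mRNA apart from its mRNA. Among the 1977 genes of the shortest 20%, the medians were 0.49, 0.52, 0.51 and 0.50 for 1 to 2, 3 to 5, 6 to 10 and over 10 exons.

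Few long genes were called higher at 40 min, and with all libraries at the same total most of the longest 10% were lower, as given above. The longest gene with a log2 fold change of at least 1, singled out after its values were seen, was Dnajb14 (chr3:137867675-137916557), a membrane co-chaperone of 48883 bp. It was at 0.383, 0.299 and 0.422 TPM in mitosis and at 2.49 and 2.48 TPM at 40 min (log2 fold change 1.43 ± 0.14, SE, limma adjusted p = 3.1e-07). Among the longest 10% of genes the largest change was that of Sertad2 (chr11:20543253-20653021), a relative of Sertad1 and likewise picked after its value was seen, with 0.488, 0.963 and 0.872 TPM in mitosis and 1.45 and 1.9 TPM at 40 min (0.68 ± 0.13, SE, limma adjusted p = 2.6e-04).

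**Figure D3:**
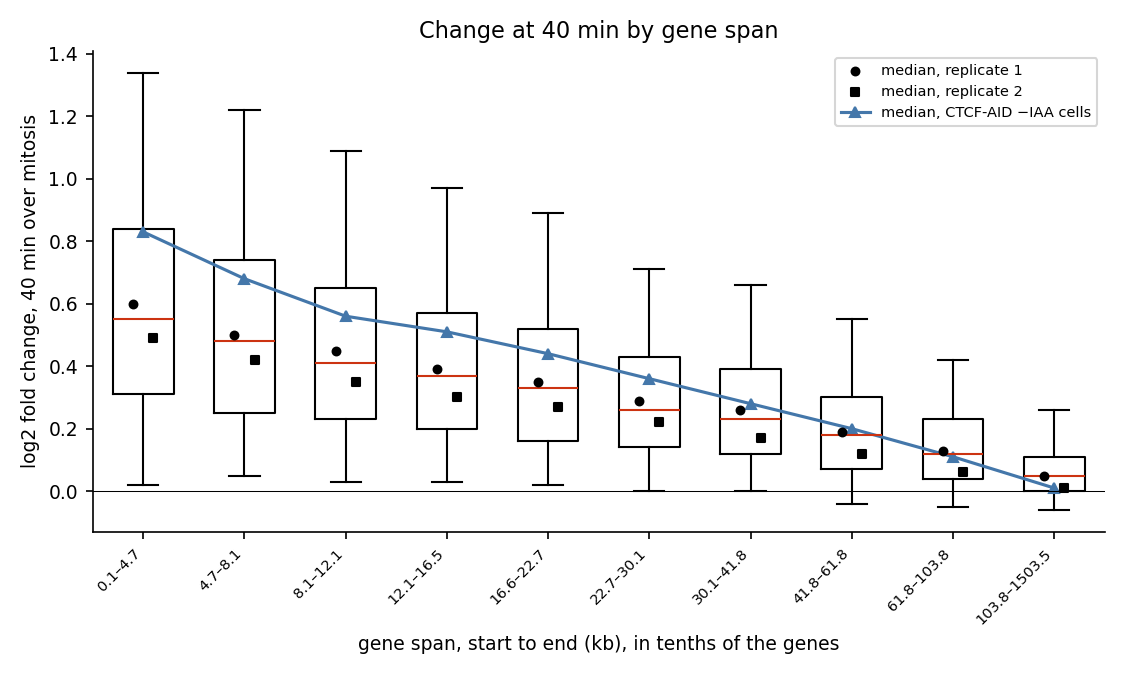
Log2 fold change from mitosis to 40 min in 10 classes of gene span (kb). Boxes run from quartile to quartile with the median in red and whiskers from percentile 5 to percentile 95, black points the medians of replicates 1 and 2, and blue triangles the medians in CTCF-AID -IAA cells, and all go down from the shortest to the longest class. With all libraries at the same total the medians went from 0.29 in the shortest class to −0.26 in the longest. They were below 0 there from the class of 22655 to 30088 bp (−0.07) on.

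The gene lists are described next, beside the 49.3% of all genes that were called higher and the median of 0.26. The count of called members changed by over 1.5 times in 17 of 36 lists without the 40 min library of replicate 1, given below as without replicate 1, and in 27 of 36 without the replicate block. Those counts of members called higher stand in brackets beside the list. Without the 40 min library of replicate 2 it changed as much in 4 lists (pluripotency factors, integrated stress response, lamina and pore, Zfp genes). Without mitotic replicate 1 or 3 there were 9 integrated stress response genes higher, and without mitotic replicate 2 there was 1 germ layer gene. On the 5 libraries alone 4 germ layer and 5 trophoblast and fibroblast genes were higher. A filter at a mean of 1 TPM, which leaves fewer members to test, changed the count as much in 11 lists. With it 4 members were higher in the Myc network, 12 of the immediate early genes, 3 of the FGF-ERK feedback genes, 9 of the integrated stress response, 10 of Polycomb and DNA methylation, 31 of the mitochondrial ribosomal proteins, 13 of cholesterol synthesis, 75 of the Zfp genes, 54 of the solute carriers and 11 of adhesion and guidance. Division by the step factor of each library, described under processing, did so in 7 lists, with 42 translation initiation factors, 9 cohesin genes, 29 adhesion and guidance genes, 11 microRNA and small nucleolar RNA genes and 12 long noncoding RNAs higher. Among the lists of other cell types 1 germ layer gene was higher with the filter, and 4 germ layer and 4 trophoblast and fibroblast genes with the division. Some members given below had values between −0.12 and 0.10 and were called lower by limma with all libraries at the same total. These were Aff1, Cdk6, Cenpa, Eif4g3, Hist1h2bq, Hspa4, Mdn1, Med23, Mga, Nsdhl, Orc5, Spred1, Stag1 and Tet1, at −0.57 to −0.24. Among transcription factors of the pluripotency network and its targets, 13 of 24 measured members were higher and none lower, with a median of 0.40 (with all libraries at the same total, 4 were higher and 2 lower, 6 without replicate 1 and 3 without the block). Klf4 (chr4:55527143-55532466) had the largest change, from 1.08, 0.83 and 1.52 TPM to 6.91 and 4.63 TPM (1.77 ± 0.17, SE, limma adjusted p = 2.5e-07). Dppa5a, an RNA-binding protein of pluripotent cells, followed with 1.19, from 5.12, 5.58 and 5.06 TPM to 14.9 and 12 TPM, and Klf5 with 0.93. The core factor Pou5f1 (chr17:35506018-35510772) was at 9.23, 4.95 and 11.1 TPM in mitosis and at 12.6 and 7.13 TPM at 40 min. Its groups overlapped, its call (0.40 ± 0.15, SE, limma adjusted p = 0.0291) was lost without the replicate block (limma adjusted p = 0.741) and without the 40 min library of replicate 1 (limma adjusted p = 0.203), and it was −0.15 with all libraries at the same total. Nanog (chr6:122707489-122714633) was at 3.45, 3.82 and 4.72 TPM and then at 5.33 and 5.18 TPM (0.45 ± 0.16, SE, limma adjusted p = 0.0235, but 0.178 without the 40 min library of replicate 1, and −0.06 at the same total). Esrrb (chr12:86361117-86521628), with a span of 160512 bp, had a value of 0.32 that was not called (limma adjusted p = 0.079), and Lefty2 had the lowest of the list, −0.02.

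Of the Myc network, Myc and the partners and rivals that bind E-boxes with it, 10 of 12 members were higher, with a median of 0.60 (7 higher and 1 lower at the same total, 6 without the block). Myc (chr15:61985391-61990374) went from 0.627, 0.731 and 0.984 TPM to 5.1 and 4.12 TPM (1.69 ± 0.18, SE, limma adjusted p = 4.1e-07). Its relative Mycn went from 2.82, 3.35 and 3.63 TPM to 11 and 10.7 TPM (1.51 ± 0.24, SE). The Max-binding repressor Mxd1 had a log2 fold change of 1.20, and Mga, a repressor of 72354 bp, one of −0.02.

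Of 35 immediate early genes, which respond to growth factors and stress without new protein synthesis, 19 were measured, and the table lists genes partly for their level after release, as given above. The 19 were higher, with a median of 1.01 and 10 of them at 1 or more (18 higher and 0 lower at the same total, and 12 higher with the filter at 1 TPM). Besides Gadd45b, the largest changes were those of Gadd45a, from 2.06, 1.93 and 1.8 TPM to 9.01 and 7.75 TPM (1.69), and of Btg2, a relative of Btg1, from 8.68, 4.52 and 7.31 TPM to 26.8 and 16.6 TPM (1.54). Fos, a subunit of AP-1, was at 0.488, 0.365 and 0.197 TPM and then at 2.03 and 2.11 TPM (1.01 ± 0.24, SE, limma adjusted p = 0.00147). The growth factor-induced factor Egr1 was at 0.871, 0.531 and 0.506 TPM and then at 4 and 2.92 TPM (1.31 ± 0.19, SE). The longest of the list, Sgk1, a kinase gene of 117720 bp, had the lowest value, 0.28, and was not called without the 40 min library of replicate 1 (limma adjusted p = 0.0756). Jun was not analysed here. The list had a median span of 5310 bp. The part of the replating in pre-warmed medium in these changes was not tested.

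Of 13 feedback inhibitors and targets of FGF-ERK signalling, 7 were higher (median 0.32, 4 higher and 6 lower at the same total). Those with the largest changes were phosphatases of MAP kinases, Dusp5 (1.38), Dusp6 (1.29) and Dusp4 (1.00). The Ras-pathway inhibitor Spred1, with a span of 60906 bp, was at 0.01.

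Targets of p53 and of the stress responses were called higher in large part. Of 20 p53 targets 18 were higher, with a median of 0.76 (10 higher and 0 lower at the same total). The proapoptotic genes Pmaip1, from 1.6, 0.83 and 0.956 TPM to 7.84 and 5.44 TPM (1.74), and Bbc3, from 2.06, 1.3 and 1.63 TPM to 6.68 and 5.02 TPM (1.39), were among the first 3 with Btg2. Of 17 genes of the integrated stress response 14 were higher, with a median of 0.45 (7 higher and 1 lower at the same total, 8 without replicate 1 and 6 without the block). Among them were Ddit4, an inhibitor of mTORC1 (1.75, from 2.23, 1.79 and 1.35 TPM to 10.9 and 7.29 TPM), Ddit3, a transcription factor of the response (1.64, from 4.46, 2.92 and 4.81 TPM to 14.7 and 12 TPM), and the amino acid transporter Slc7a5 (1.46). Of 23 heat shock chaperones 17 were higher (median 0.58, 11 higher and 4 lower at the same total), with Hspa8 at 1.53, Hspa5 at 1.40, Dnajb1 at 1.36 and Hspa4 lowest at 0.06. All cells of both groups had been through both drugs, and mitotic cells without the drugs were not analysed here.

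**Figure D4:**
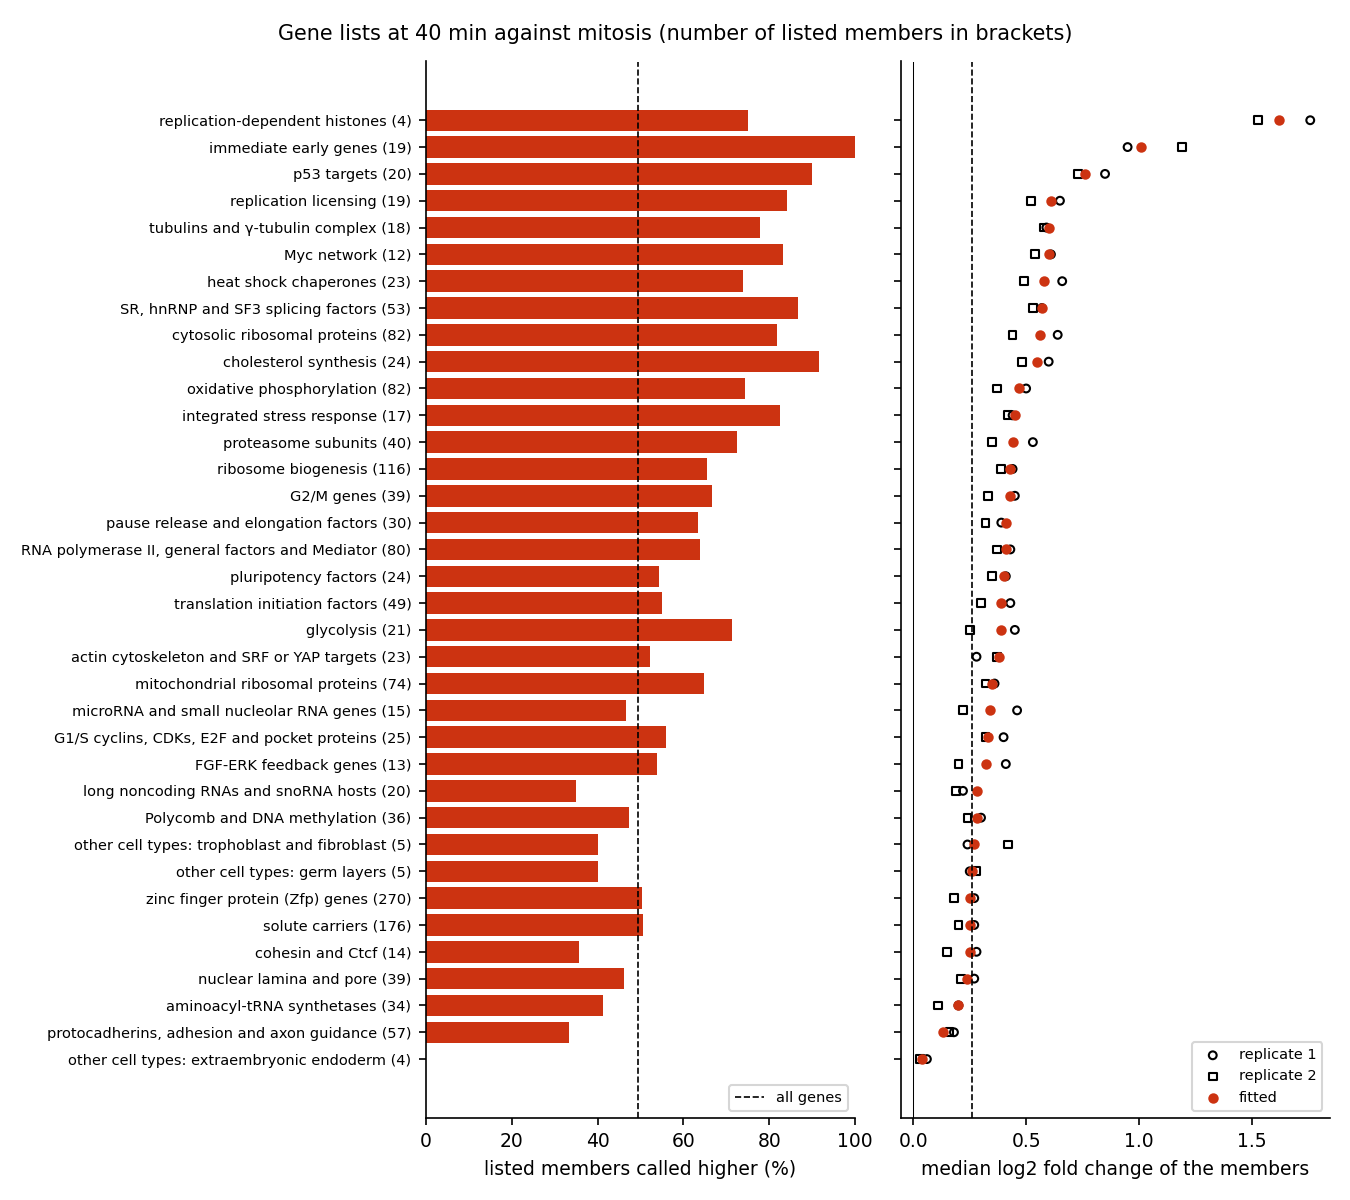
Share of measured members called higher at 40 min (left, %) and median log2 fold change of the members (right) for 36 gene lists, with the number of members in brackets and dashed lines at the values of all genes. Red points are the medians of the fit, and open circles and squares those of replicates 1 and 2. Immediate early genes, p53 targets and replication licensing lie above the median of all genes in both replicates, and adhesion and guidance genes below it. At the same total in every library 2347 of all genes were higher and 3100 lower.

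Genes that carry the cell cycle forward differed by member. Of 25 G1/S cyclins, CDKs, E2F factors and pocket proteins 14 were higher, with a median of 0.33 (10 higher and 8 lower at the same total, 9 without the block). Cdk2 (chr10:128697939-128705031), the kinase partner of cyclin E, went from 0.941, 0.631 and 0.956 TPM to 3.65 and 2.64 TPM (1.25 ± 0.15, SE, limma adjusted p = 1.9e-06). The cyclin E genes Ccne2 (1.31) and Ccne1 (1.03, from 2.26, 1.99 and 3.06 TPM to 5.94 and 4.86 TPM) and the cyclin D kinase Cdk4 (1.10) were higher, as were Ccnd1 (0.62 ± 0.14, SE) and E2f1 (0.58 ± 0.12, SE), although E2f1 was not called with all libraries at the same total (0.10, limma adjusted p = 0.421). The values of Rb1, a pocket protein gene of 142150 bp (0.14, limma adjusted p = 0.309), and of Cdk6, with 189524 bp (−0.08, limma adjusted p = 0.565), were not called, but at the same total limma called both lower (−0.23, adjusted p = 0.017, and −0.52, adjusted p = 4.4e-04). Of 19 replication licensing genes 16 were higher, with a median of 0.61 (9 higher and 3 lower at the same total, 6 without the block), among them Mcm4 (1.17), a subunit of the replicative helicase, and Orc6 (1.10) and Cdt1 (1.03), which take part in loading it on origins, while Orc5 was at 0.03. Of 39 G2/M genes 26 were higher (median 0.43, 11 higher and 13 lower at the same total, 12 without the block). The ubiquitin-conjugating enzyme of the anaphase-promoting complex Ube2c had 1.33, the kinesin Kif20a 1.24 and cyclin A2 (Ccna2) 1.16, from 1.18, 0.864 and 1.27 TPM to 4.07 and 2.89 TPM. Cenpa, the centromeric histone, was lowest at 0.03. The reporter of these cells is named for cyclin A, and the table does not separate a transgene from the endogenous gene.

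Of 4 replication-dependent histone genes, 3 were higher, Hist1h2br, Hist1h2bp (1.73) and Hist1h2bc (1.51), and 3 were higher and 1 lower at the same total. The lower one there, Hist1h2bq, was at 21.8, 27.7 and 18.2 TPM in mitosis and at 35.5 and 17.5 TPM at 40 min, a value of 0.07 that was not called. For all of these genes the share of new transcription in the listed level was not tested.

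Genes for making RNA followed. Of 80 genes of RNA polymerase II, its general factors and Mediator 51 were higher, with a median of 0.41 (29 higher and 23 lower at the same total, 27 without the block). Gtf2f1, a TFIIF subunit (1.55, from 1.64, 1.06 and 2.05 TPM to 5.87 and 5.92 TPM), Taf13 (1.13) and Polr2g (1.12) had the largest changes, and Med23 had −0.06. The list includes 4 TAF genes of RNA polymerase I. Of 30 pause release and elongation factors 19 were higher (median 0.41, 10 higher and 7 lower at the same total, 10 without replicate 1 and 8 without the block). Brd2, a bromodomain protein that binds acetylated histones, went from 5.75, 5.15 and 6.16 TPM to 19.2 and 18.3 TPM (1.63 ± 0.14, SE, limma adjusted p = 9.6e-08), and Supt4a and Paf1 had 1.12 and 0.95. Aff1, of 162949 bp, had 0.10. Of 53 SR, hnRNP and SF3 splicing factors 46 were higher, with a median of 0.57 (22 higher and 5 lower at the same total, 25 without the block). Srsf5 went from 6.27, 3.82 and 5.4 TPM to 21.6 and 17.4 TPM (1.82), Srsf2 from 7.94, 10.3 and 7.82 TPM to 31.2 and 25.6 TPM (1.54), and Srsf6 had 1.43.

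Of 82 cytosolic ribosomal protein genes 67 were higher and 1, Rpl24, lower, with a median of 0.56 and a median span of 3330 bp (28 higher and 16 lower at the same total, 38 without replicate 1). Rps12, from 1.43, 3.69 and 1.66 TPM to 11.9 and 8.21 TPM (1.77 ± 0.24, SE), Rpl41 (1.76) and Rps21 (1.52) had the largest changes. Ribosomal protein genes have many processed copies in the genome, and reads of these short genes may be shared with them. Of 116 ribosome biogenesis genes 76 were higher (median 0.43, 32 higher and 38 lower at the same total, 46 without replicate 1 and 30 without the block), among them Pno1 (1.19), Nop56 (1.08, from 11.3, 10.5 and 11 TPM to 25 and 21.3 TPM) and Nhp2 (1.03), with Mdn1, an ATPase gene of 118099 bp, at −0.05. Of 49 translation initiation factors 27 were higher (median 0.39, 12 higher and 18 lower at the same total, 14 without replicate 1 and 12 without the block), with the helicase Eif4a1 at 1.37 and Eif4g3, of 215487 bp, at −0.12. Of 34 aminoacyl-tRNA synthetase genes 14 were higher, a share below that of all genes, with a median of 0.20 (4 higher and 18 lower at the same total, 7 without replicate 1 and 5 without the block).

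In metabolism, 22 of 24 cholesterol synthesis genes were higher, with a median of 0.55 (14 higher and 1 lower at the same total). Below Idi1 and Insig1 the next value was that of the sterol demethylating enzyme Msmo1 (0.97), and Nsdhl was lowest at 0.07. Of 82 oxidative phosphorylation genes 61 were higher (median 0.47, 31 higher and 14 lower at the same total, 40 without replicate 1 and 28 without the block), led by Cox6a1 (1.30), Cox6b2 (1.27) and Atp5a1 (1.23). Of 21 glycolysis genes 15 were higher (median 0.39, 5 higher and 2 lower at the same total, 9 without replicate 1 and 7 without the block), among them Pgam1 (1.18), Gapdh (0.78 ± 0.13, SE, from 0.348, 0.531 and 0.422 TPM to 1.52 and 1.39 TPM) and Ldhb (0.77). Of 40 proteasome subunits 29 were higher (median 0.44, 12 higher and 9 lower at the same total, 19 without replicate 1 and 12 without the block), and of 74 mitochondrial ribosomal protein genes 48 (median 0.35, 21 higher and 19 lower at the same total, 27 without the block). Of 176 solute carriers 89 were higher, a share close to that of all genes (median 0.25, 52 higher and 45 lower at the same total, 52 without replicate 1 and 49 without the block), with the inositol transporter Slc5a3 first at 1.84, from 0.801, 0.731 and 0.647 TPM to 6.23 and 4.63 TPM.

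Of 18 tubulins and γ-tubulin complex genes 14 were higher, with a median of 0.60 (9 higher and 3 lower at the same total). Tubb4b went from 7, 5.55 and 5.51 TPM to 18.8 and 16.1 TPM (1.39), and Tuba1a and Tuba1b had 1.19 and 1.09. Of 23 genes of the actin cytoskeleton and targets of SRF or YAP 12 were higher (median 0.38, 3 higher and 3 lower at the same total, 7 without the block). Actg1 had 1.38 and Actb 0.68 ± 0.13 (SE), from 7.7, 7.77 and 8.6 TPM to 14.8 and 12.3 TPM, and Actb was not called with all libraries at the same total (0.12, limma adjusted p = 0.262).

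Lists of nuclear architecture and chromatin had shares of called genes from 35.7% (cohesin and Ctcf) to 47.2% (Polycomb and DNA methylation), beside 49.3% of all genes. Of 39 lamina and pore genes 18 were higher (median 0.24, 3 higher and 17 lower at the same total, 7 without replicate 1 and 4 without the block), with the nucleoporin Nup62 at 1.58. Of 14 cohesin genes and Ctcf 5 were higher (median 0.25, 2 higher and 6 lower at the same total, 3 without replicate 1 and 2 without the block). Esco2, the acetyltransferase that locks cohesin in S phase, went from 2.54, 1.46 and 3.01 TPM to 8.23 and 5.02 TPM (1.32). Ctcf (chr8:105636568-105682922) was at 2.86, 2.89 and 3.23 TPM and then at 3.55 and 3.36 TPM, where its value of 0.25 was not called (limma adjusted p = 0.129) but was called lower at the same total (−0.24, limma adjusted p = 0.00929), and the cohesin subunit Stag1, of 361578 bp, had 0.01. Of 36 Polycomb and DNA methylation genes 17 were higher (median 0.28, 8 higher and 13 lower at the same total, 9 without the block), among them Pcgf1 (1.10) and Bmi1 (1.01), with Tet1 at 0.03. Of 270 Zfp genes 136 were higher and 1 lower (median 0.25, 50 higher and 73 lower at the same total, 65 without replicate 1 and 48 without the block). Of 57 protocadherin, adhesion and guidance genes 19 were higher, or 33.3%, with a median of 0.13 and a median span of 46300 bp (8 higher and 18 lower at the same total, 8 without replicate 1 and 8 without the block), and none had a value of 1 or more.

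Noncoding genes varied widely. Of 15 microRNA and small nucleolar RNA genes 7 were higher (median 0.34, 4 higher and 2 lower at the same total, 4 without the block) and of 20 long noncoding RNA and snoRNA host genes 7 (median 0.28, 3 higher and 6 lower at the same total, 4 without replicate 1 and 4 without the block). The host gene Gas5 had 1.09, and Snhg12 was listed at 0 TPM in all 3 mitotic libraries and at 1.68 and 0.926 TPM at 40 min. Of the lists of other cell types, 0 of 4 extraembryonic endoderm genes were called by limma, with values between −0.02 and 0.17, 2 of 5 germ layer genes were higher (Eomes at 0.56 and Nes at 0.44, the latter not called without the 40 min library of replicate 1, limma adjusted p = 0.287), and 2 of 5 trophoblast and fibroblast genes (Tfap2c at 0.72 and Vim at 0.71). Of these called genes Nes, Tfap2c and Vim were not called with all libraries at the same total (0.14, 0.34 and 0.37). Without the block 1 germ layer gene and 0 trophoblast and fibroblast genes were called higher by limma, and without replicate 1 it called 1 germ layer gene. At the same total 0, 1 and 0 genes of these lists were higher and 4, 0 and 0 lower.

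Other comparisons place 40 min among the stages of the same cells. They share the 40 min libraries with the comparison above and are therefore given only side by side. Against 20 min 3408 genes were higher at 40 min (34.4%) and 0 were lower by limma (4 at an unadjusted p under 0.05), with a median difference of 0.20. On libraries of the same total 1917 were higher and 2338 lower, and without the block 1468 were higher. At 20 min itself 0 genes were called against mitosis by limma. Of 9911 genes, 244 were higher and 9 lower at an unadjusted p under 0.05 by limma. That is no more than this threshold lets pass without any change. Against asynchronous cells 2012 genes (20.3%) were higher at 40 min and 2396 (24.2%) lower, with a median of −0.04. The 1218 genes without a mean over 0.5 TPM in asynchronous cells are listed for their level after release. That rule favours values above the asynchronous level. From 40 to 60 min 7877 genes (79.5%) were higher and 21 (0.212%) lower, with a median of 0.49 (1723 higher and 1111 lower on libraries of the same total). Without the 40 min library of replicate 1 limma called 1645 genes higher than at 20 min, and 1088 higher and 1083 lower than in asynchronous cells. Without that of replicate 2 it called 1330 lower than in asynchronous cells and 10 lower from 40 to 60 min. Without the block 1008 genes were higher and 1427 lower than in asynchronous cells, and 7 were lower from 40 to 60 min.

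Named genes stood on both sides of the asynchronous level at 40 min. Farthest above it were Btg2, by 2.74, Hist1h2br, by 2.49, Hist1h2bp, by 2.45, and Mir20a, by 2.39 on the log2 scale. Ddit3 was above it by 2.21, Btg1 by 2.18, Ddit4 by 2.11, Cd68 by 2.08, Tob1 by 2.05 and Gadd45b by 2.02 on the log2 scale (limma adjusted p = 6.7e-09 for Ddit3 and 1.2e-07 for Gadd45b). Klf4 was above it by 1.25 and Myc by 0.81. Farthest below were Hist1h2bq (−3.58, limma adjusted p = 9.4e-11), Rpl24 (−2.03), Hist1h2bc (−1.16) and Actg1 (−1.10). Rps12 (−0.90), Actb (−0.65) and Dppa5a (−0.54) were below it too, and Pou5f1 differed by −0.09 (limma adjusted p = 0.633). Among lists, 14 of 19 immediate early genes and 15 of 20 p53 targets were above the asynchronous level and 0 of either below, whereas of 24 pluripotency factors 2 were above and 11 below, beside 20.3% of all genes above and 24.2% below. These calls are from the fit whose counts over all genes were lower without the 40 min library of replicate 1 and without the block, and the list counts were not recomputed there. Genes low in asynchronous cells are listed only for their level after release, and 19 of 35 immediate early genes were measured. The counts above the asynchronous level are therefore favoured by the listing. From 40 to 60 min the values of Btg1 (−0.08), Idi1 (−0.01), Sertad1 (−0.06), Klhl11 (0.05) and Zc3h10 (0.06) were not called by limma, while Cd68 (1.12) and Atp1b1 (1.01) rose again.

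Over the time course the unscaled median was higher in short than in long genes from 20 to 120 min. The order in which they moved was not tested, and limma called 0 genes at 20 min against mitosis. At 20 min the median log2 fold change was 0.07 in the shortest 20% of genes (up to 8066 bp) and 0.01 in the longest (from 61785 bp). With the mean of the replicates the values at 40 min were 0.50 and 0.05. With all libraries at the same total the fit gave 0.24 and −0.24 at 40 min. A single library at 50 min, of replicate 3, which has no library at 40 or 60 min, gave 0.91 and 0.16. The values at 60 min were 0.99 in short and 0.38 in long genes, and those at 120 min were 0.77 and 0.51. Asynchronous cells, which hold all stages of the cycle, had 0.31 and 0.33.

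**Figure D5:**
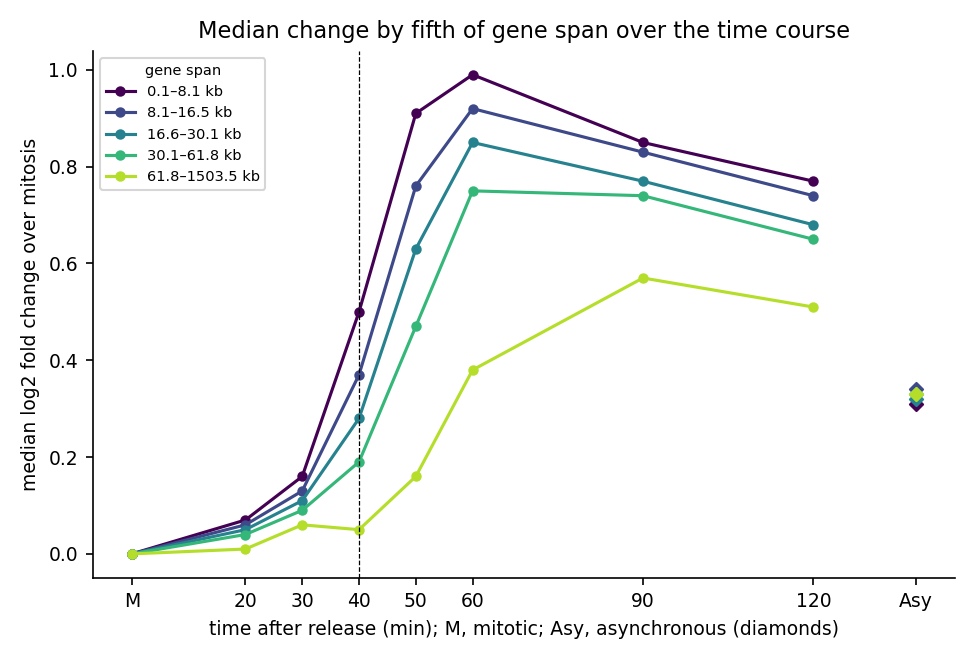
Median log2 fold change over mitosis in 5 classes of gene span, against time after release (min). Lines are the classes from short (dark) to long (light), each point is the mean over the replicates of that time point (n = 2, and 1 at 50 min), diamonds are asynchronous cells (n = 3), and the dashed line marks 40 min, where the medians go from 0.50 to 0.05. The diamonds lie close together, and at 60 min the classes still run from 0.99 to 0.38. Points at 20, 40, 60 and 120 min are of replicates 1 and 2, and those at 30 and 90 min of replicates 1 and 3. The point at 50 min is of replicate 3, so that neighbouring points can differ by replicate too.

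In CTCF-AID -IAA cells, with no library shared, 6387 of 10237 genes (62.4%) were higher at 40 min than in mitosis and 243 (2.37%) lower, with a median of 0.34 (3251 higher and 3504 lower on libraries of the same total). Without the 40 min library of replicate 1 of that line 54 were lower, and without its mitotic replicate 2 there were 139. Without the block 4133 were higher and 98 lower. Of the 9574 genes measured in both lines, 4658 were called higher in both, which is 96.5% of the 4829 genes higher in CCNA-GFP cells and 77.1% of the 6043 higher in CTCF-AID cells, beside 63.1% of all shared genes called higher in CTCF-AID cells. No gene was higher in CCNA-GFP cells and lower in CTCF-AID cells. All 436 shared genes with a log2 fold change of at least 1 in CCNA-GFP cells were higher in CTCF-AID cells, 401 of them by at least 1, a size reached by 9.97% of all genes there. Across genes the log2 fold changes had a Pearson correlation of 0.90 and a Spearman correlation of 0.89, over genes that are not independent. By span the medians went from 0.83 in the shortest 10% of genes to 0.01 in the longest, and the shortest and longest 20% differed by 0.70, against 0.44 in CCNA-GFP cells, a difference between lines that was not tested. Hist1h2br was at 5.31, 1 and 2.64 TPM in mitosis and at 46.1 and 41.3 TPM at 40 min there, and Fzd5 at 3.65, 2.49 and 2.72 TPM and then at 25.9 and 18.4 TPM. Pou5f1, which was called in CCNA-GFP cells, had 0.34 in CTCF-AID cells and was not called (limma adjusted p = 0.114), and Rb1, not called in CCNA-GFP cells, had 0.36 there and was (limma adjusted p = 0.00164). Whether these genes differed between lines was not tested.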

How the data were processed

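RNA-seq measured pre-mRNA in mouse ES cells. The authors made ribo-depleted, stranded, paired-end libraries and mapped reads to mm10 by STAR. With RSEM they estimated isoform levels from Gencode vM12, extended by a pre-mRNA isoform per gene, and the TPM deposited are those of that isoform, for genes whose mean passed 0.5 TPM in the asynchronous group or in 2 or more samples after release. The level in mitosis did not count for this. TPM hold no counts, so depth is unknown, and precision was judged from the replicates. Values of a library are multiples of 0.01 times a factor of its own, which the sources used here do not name (2.314 to 3.484 in the 5 libraries).

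Values were analysed as log2(TPM + 1) with limma 3.58.1 in R 4.3.3 (eBayes with a trend, replicate as a block), fitted on all 19 CCNA-GFP libraries or on the 18 CTCF-AID -IAA libraries, with Benjamini-Hochberg adjustment over all genes and a threshold of 0.05. On this scale changes of low genes are understated. The fit was tested on simulated data for this comparison: with 200 of 9911 genes changed by 1 or by 0.5 (log2), 99% and 61.5% of them were recovered, and 6.16% and 4.65% of calls were false. The simulated noise was separate for each gene, with no shift shared by a whole library. These rates therefore do not describe the calls here, where 49.3% of genes were higher and library totals differed. Mitotic and released libraries with the same replicate number come from one shake-off, with asynchronous cells collected alongside. Deviations from the stage means correlated (r = 0.69 between mitosis and 40 min, above 0.1 in each of 20 stage pairs), so the block is used. The study describes the replicates as independent biological ones. In each pair of the 5 libraries 0% of the genes had exactly the same value above 0 TPM, and values listed at 0 in both were not compared.

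Named were the 15 genes with the largest change among those called, higher in both replicates and at a mean of at least 1 TPM, the genes called lower, leading and lowest members of each list, and fixed genes, of which Sox2 and Jun were not analysed here. Members and lists were chosen with earlier results of these data known, and motifs with their shares known. Positions are from Gencode vM21 on GRCm38 (9885 of 9911 symbols matched uniquely), and sequences from RefSeq GRCm38.p6. Alternatives were pseudocounts of 0.1 and 0.5, a filter at 1 TPM, other scalings, fits without the block or the trend or on fewer libraries, and leaving out each 40 min and mitotic library.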

Additional observations from a re-analysis of the deposited data

Results flagged for a closer look

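Hspa4, a chaperone of the Hsp110 family, was higher at 40 min than in mitosis in both replicates of CCNA-GFP cells (0.06 and 0.02 on the log2 scale) and lower in both of CTCF-AID -IAA cells (−0.21 and −0.08). Neither fit on unscaled values called it (0.06 in CCNA-GFP cells, and −0.12 with a limma adjusted p of 0.322 in CTCF-AID cells), and the difference between the lines was not tested. With all libraries at the same total limma called it lower in CCNA-GFP cells (−0.49, adjusted p = 1.9e-04), and without the replicate block it was −0.04 there, so that the direction in CCNA-GFP cells turned with either choice.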

How the results depend on the processing

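The direction of the main comparison, many genes higher and few lower, held for every alternative except the scaling of all libraries to the same total. With pseudocounts of 0.1 and 0.5 the genes with a log2 fold change of at least 1 numbered 1857 and 865, the median of all genes was 0.47 and 0.34, the difference between the shortest and longest 20% of genes 0.81 and 0.58, 7 genes were lower with 0.5, and 2 were lower than at 20 min with 0.1. A mean of at least 1 TPM left 3161 genes higher, with a median of 0.35 and a span difference of 0.56. At the same total 2347 genes were higher, 3100 lower and 149 higher by at least 1, the median was −0.05 and the span difference 0.48. In that scaling 1917 genes were higher and 2338 lower than at 20 min, 1723 higher and 1111 lower from 40 to 60 min, and 3251 higher and 3504 lower in CTCF-AID cells. With values divided by the step factor of each library 1 gene was lower, 759 were higher by at least 1, the median was 0.40, 5 genes were lower than at 20 min, and 2456 were higher and 75 lower from 40 to 60 min. Fitted on the 5 libraries alone 20 genes were lower, and on the 4 of replicates 1 and 2 there were 25.

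Without the replicate block 2362 genes were higher and 1 lower, with a median of 0.20. The fit without the block also gave 1468 genes higher than at 20 min, 1008 higher and 1427 lower than in asynchronous cells, 7 lower from 40 to 60 min, and 4133 higher and 98 lower in CTCF-AID cells.

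Leaving out each of the 5 libraries in turn gave 2872 to 4621 genes higher, 2 to 5 lower and 375 to 522 higher by at least 1, medians of 0.25 to 0.30 and span differences of 0.40 to 0.48. For the other stages each 40 min library alone was left out, which gave 1645 to 2314 genes higher and 1 lower than at 20 min, 1088 to 1435 higher and 1083 to 1330 lower than in asynchronous cells, and 6645 to 6852 higher and 10 to 15 lower from 40 to 60 min. Leaving out each of the 5 CTCF-AID libraries gave 4702 to 6136 higher and 54 to 237 lower there.

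Among named genes the sign changed mostly where the value was near 0. At the same total it did in Aff1 (−0.35), Cenpa (−0.51), Ctcf (−0.24), Esrrb (−0.09), Hist1h2bq (−0.53), Hspa4 (−0.49), Nanog (−0.06), Nsdhl (−0.24), Orc5 (−0.46), Pou5f1 (−0.15), Rb1 (−0.23), Spred1 (−0.46), Stag1 (−0.43) and Tet1 (−0.53), and limma called these lower there except Esrrb, Nanog and Pou5f1. Without the block it did in Aff1 (−0.07), Cenpa (−0.09), Hspa4 (−0.04), Lefty2 (0.04), Orc5 (−0.06), Spred1 (−0.12), Stag1 (−0.05) and Tet1 (−0.17), divided by the step factor in Cdk6 (0.07), Eif4g3 (0.03), Lefty2 (0.01), Mdn1 (0.15), Med23 (0.09) and Mga (0.17), and with a pseudocount of 0.1 in Lefty2 (0.01) and Spred1 (−0.00). The fits on 5 and on 4 libraries turned Lefty2 (0.01), Orc5 (−0.00), Stag1 (−0.02) and Tet1 (−0.04), to the same values in both. Leaving out a library turned Hist1h2bq (−0.34 to −0.10), Lefty2 (0.01), Med23 (0.00), Mga (0.03), Orc5 (−0.00), Spred1 (−0.03 to −0.01), Stag1 (−0.03 to −0.02) and Tet1 (−0.04). The cause of these shifts was not tested.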
